A study of Mus musculus with 8 samples.

Results

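The genes described here encode the proteins that copy DNA in S phase, together with the activator E2F genes that are known to drive their transcription. They were chosen by a rule on symbols that uses no measured value, but earlier results of these data were known when it was set. The choice took in the origin recognition complex (Orc1 to Orc6), Cdc6, Cdt1 and Gmnn, the minichromosome maintenance genes (Mcm2 to Mcm10), Cdc45, Cdc7 and the GINS genes, the replicative polymerases and primase, Pcna and its loader, the RPA genes, Fen1, Lig1, the CAF-1 subunit genes Chaf1a and Chaf1b, Rrm1, Rrm2, Tyms and E2f1 to E2f3. Of 55 symbols that the choice allows, 54 were in the tables, out of 16896 genes in any table. Pold4 was in none of the tables and was not analysed here. All 54 had an adjusted p in each of the 4 tables, so none of them lost its adjusted p to a filter on low values. A filter applied before the tables were made would not show here.

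The study measured newly made RNA by TT-seq, in which cells take up 4-thiouridine (4sU) for a short pulse and the labelled transcripts are drawn out and sequenced. All libraries came from ES-E14TG2a (E14), a male line of mouse embryonic stem cells, after a pulse of 5 min with 500 nM 4sU. The mutant lines carry the K122A substitution in histone H3.3, an H3 variant encoded by H3f3a and H3f3b and deposited in chromatin outside S phase as well as within it. The dual-targeted group held 3 libraries, each with 3 mutant alleles of 4, namely 2 clones of genotype H3f3a A/A H3f3b WT/A, called the clones here, and 1 line of genotype H3f3a WT/A H3f3b A/A, called the third line here. The single-targeted group held 2 libraries with 2 mutant alleles each, from 1 line of H3f3a A/A H3f3b WT/WT and 1 line of H3f3a WT/WT H3f3b A/A. The wildtype group held 3 libraries of Wildtype cells, described as biological replicates. Each mutant line was sequenced a single time, so line, clone and genotype cannot be told apart, and each mutant line keeps at least 1 normal H3.3 allele. Culture medium contained LIF, and a second medium added inhibitors of GSK and MEK to it, but the labels do not tie either medium to these libraries.

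Replication is prepared in G1, when the origin recognition complex, CDC6 and CDT1 load the MCM2 to MCM7 ring onto DNA. In S phase the kinases CDC7 and CDK2 turn the ring into an active helicase by adding CDC45 and GINS, and the polymerases alpha, epsilon and delta then copy both strands. E2F transcription factors switch on many of these genes at the entry into S phase, and mouse embryonic stem cells are known for a short G1 and high E2F activity. In such bulk libraries, fewer cells in S phase and less transcription of a gene in each cell cannot be told apart.

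The values are the authors' own comparisons, with no column for a single library, so the depth of each library is unknown. The third line is 1 library and so has a rebuilt value of its own, and the other libraries are seen only in group means. Means of normalized counts for each group were rebuilt from the tables by subtraction, scaled to a median ratio of 1 between each group and wildtype, and carry no error. The authors' deposited table of dual-targeted and wildtype cells held mean counts with a total of 1.26e+07, and that of single-targeted and wildtype cells a total of 1.08e+07. Newly made RNA of the H3.3 genes themselves was called in 1 table, and it cannot check the labels, since the mutation replaces an amino acid and deletes nothing. In the authors' deposited table the log2 fold change of H3f3a was 0.13 ± 0.19 (SE, adjusted p = 0.633) and that of H3f3b 0.06 ± 0.36 (adjusted p = 0.80) in dual-targeted against wildtype cells. The clones alone had H3f3b higher than wildtype, at 0.84 ± 0.27 (adjusted p = 0.00351) in the authors' deposited table. All 10 pluripotency markers listed were present, with summed rebuilt means of 23072 in dual-targeted, 18520 in single-targeted and 17936 in wildtype cells. Of 8 fibroblast or feeder markers 2 were in the tables, with sums of 4493, 6656 and 9418 in the same order of groups, while Col1a1, Col1a2, Col3a1, Dcn, Lum and Postn were in no table. Endoderm markers (3 of 7 in all tables) summed to 1179 in dual-targeted, 842 in single-targeted and 451 in wildtype cells, with Sox17 and Foxa2 in no table. Neural markers (4 of 5 in all tables) summed to 569, 281 and 365, trophectoderm markers (2 of 5) to 346, 321 and 297 and mesoderm markers (1 of 5) to 39.2, 28.9 and 33.2 in the same order of groups. The part of these markers in the results below was not tested.

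In dual-targeted against wildtype cells, 6 of the 54 replication genes passed an adjusted p of 0.05 in the authors' deposited table, 3 higher and 3 lower. That is 11.1% of them, against 20.9% of all 16493 genes tested (10.8% higher and 10.1% lower), a share below the background. Pole3, E2f2 and Rfc4 rose, and Chaf1b, Pole and Orc6 fell. The median log2 fold change of the 54 in the authors' deposited table was 0.03, beside 0.01 over all genes, and 32 of the 54 lay above 0.

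In single-targeted against wildtype cells, 2 of the 54 passed in the authors' deposited table, both lower, which is 3.70% against 2.96% of 15030 genes tested (1.49% higher and 1.47% lower). These were Mcm5 and E2f1. The median of the 54 in the authors' deposited table was -0.10 on the log2 scale, beside 0.00 over all genes, and 36 of the 54 lay below 0.

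Set directly against each other, dual-targeted cells had 5 of the 54 higher than single-targeted cells and 0 lower in the authors' deposited table, a share of 9.26% against 7.06% of 13141 genes tested (4.37% higher and 2.69% lower). They were Pole3, Gmnn, Mcm2, Chaf1a and Mcm7. The median of the 54 in the authors' deposited table was 0.13, beside -0.00 over all genes, and 37 of the 54 lay above 0. The 3 comparisons share libraries, and the fold changes are shrunken separately in each table, so their sizes are only roughly comparable. In all, 12 of the 54 were called in at least 1 of the 4 tables and 42 in none. The share of all genes called in at least 1 table was not counted, so the 12 are not read as an excess. Dual-targeted against wildtype cells alone had 20.9% of genes called.

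**Figure D1:**
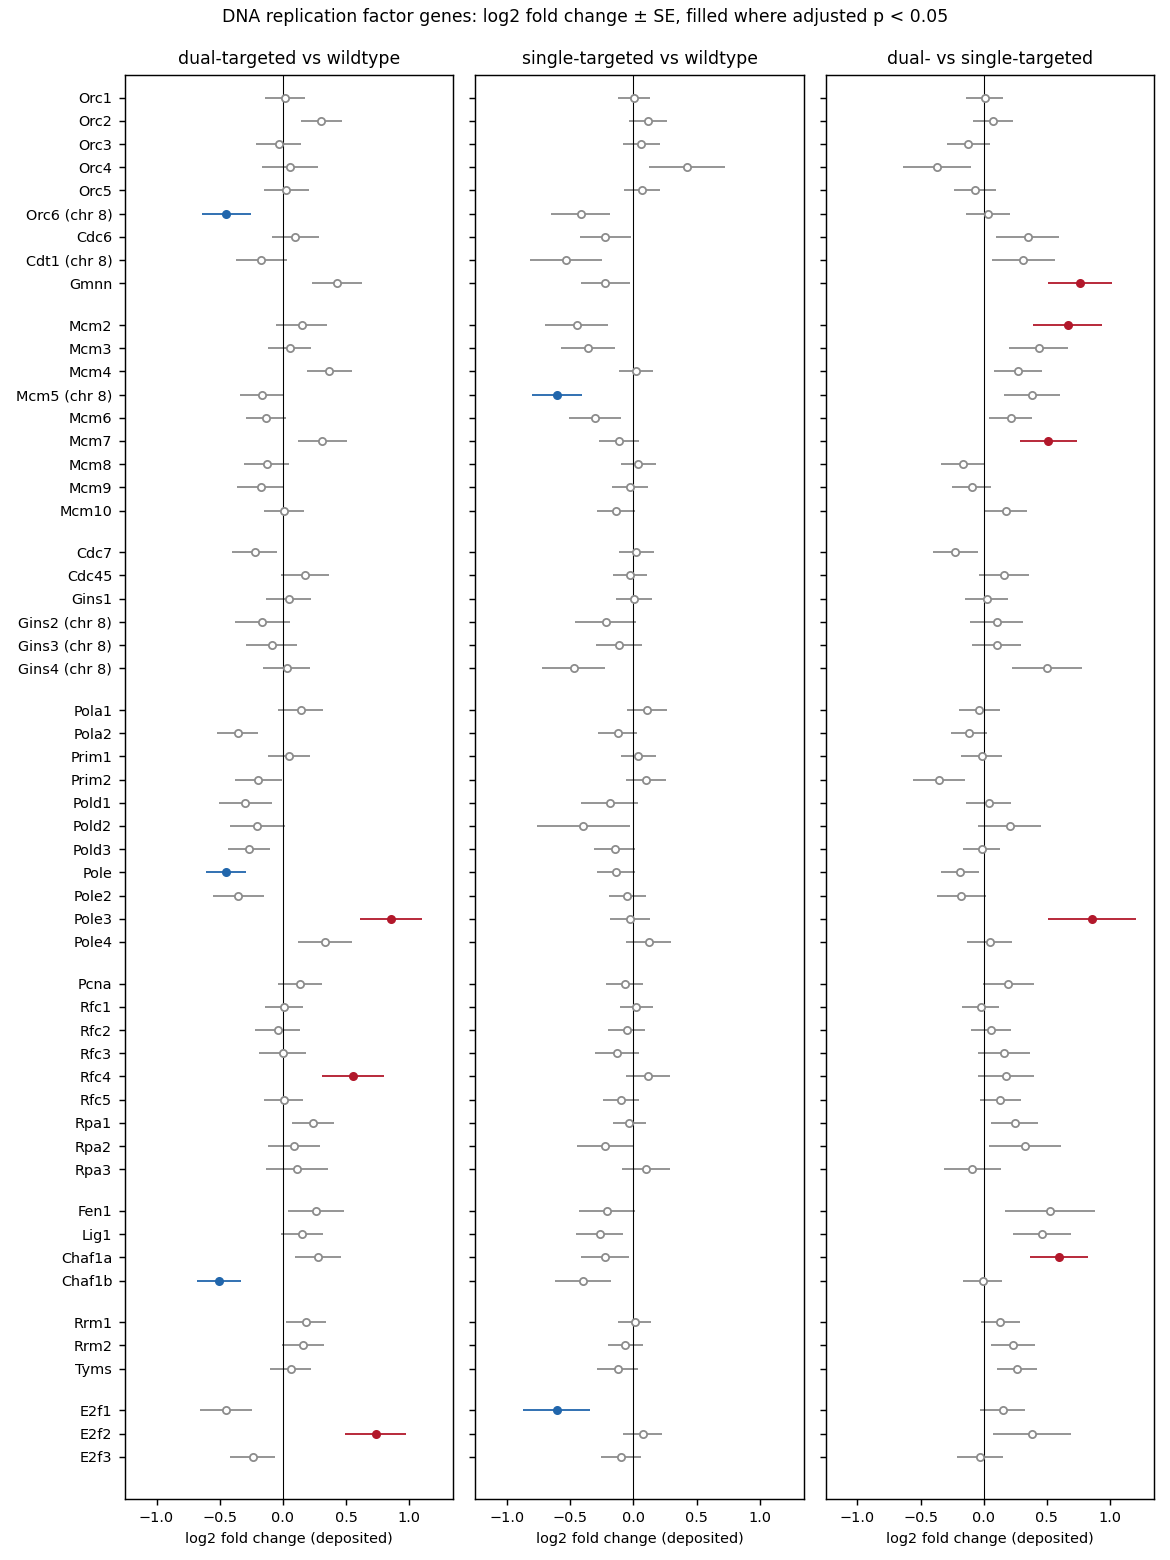
Log2 fold change as deposited, with its standard error (horizontal axis), for each of the 54 replication genes grouped by role (vertical axis), in 3 panels (dual-targeted against wildtype on the left, single-targeted against wildtype in the middle, dual-targeted against single-targeted on the right). Filled red points are called higher and filled blue points lower at an adjusted p under 0.05: 3 and 3 in the left panel, 0 and 2 in the middle, 5 and 0 in the right.

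The order of the rebuilt means gives the same genes from another side. Single-targeted cells lay below wildtype for 36 of the 54 (66.7%, against 50.0% of 11099 genes whose mean count reached 50). Dual-targeted cells lay above single-targeted cells for 36 (66.7%, against 49.5%) and above wildtype for 30 (55.6%, against 50.0%). The order with dual-targeted highest, wildtype between and single-targeted lowest held for 16 of the 54, which is 29.6% against 18.4% of all genes. The order with wildtype highest, dual-targeted between and single-targeted lowest held for 13, which is 24.1% against 11.0%. The order with wildtype highest, single-targeted between and dual-targeted lowest held for 7, which is 13.0% against 20.6%. These means have no error, so the orders are descriptions of groups and not tests.

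Among the licensing factors, Orc6, a subunit of the origin recognition complex (chromosome 8, 85299632 to 85308278, plus strand, GRCm38), was lower in dual-targeted cells. Its rebuilt mean was 554 in the clones, 485 in the third line, 517 in single-targeted cells and 766 in wildtype cells, so every mutant group lay below wildtype. In the authors' deposited table its log2 fold change in dual-targeted against wildtype cells was -0.45 ± 0.20 (SE, adjusted p = 0.0474). The value in single-targeted against wildtype cells was -0.42 ± 0.23 (adjusted p = 0.123) in the authors' deposited table, a difference that missed the threshold. Orc6 shares 171 bases with Vps35 on the opposite strand, a gene of the same chromosome that was also lower in dual-targeted cells by the authors' deposited table (-0.58, adjusted p = 0.00315). No source used here says whether the counting used strand.

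The other 5 ORC genes were not called in any of the 3 comparisons. ORC1 to ORC5 form the ring that binds origins, and their log2 fold changes ran from -0.03 for Orc3 to 0.31 for Orc2 in dual-targeted against wildtype cells in the authors' deposited table. Orc2 overlaps Nif3l1 on the opposite strand over 19046 bases, and Nif3l1 itself was higher there in the authors' deposited table (0.47, adjusted p = 0.0402). Orc4 had a rebuilt mean of 815 in dual-targeted, 1221 in single-targeted and 776 in wildtype cells, and the difference of single-targeted from wildtype cells was 0.42 ± 0.30 (adjusted p = 0.181) in the authors' deposited table.

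Gmnn encodes geminin, which binds CDT1 and blocks a second round of origin licensing (chromosome 13, 24751845 to 24761923, minus strand). Its rebuilt mean was 1051 in the clones and 872 in the third line, against 541 in single-targeted cells, with 704 in wildtype cells between them. The log2 difference of dual-targeted from single-targeted cells was 0.76 ± 0.26 (adjusted p = 0.0101) in the authors' deposited table, the lowest adjusted p of the 54 in that comparison. Against wildtype, Gmnn had 0.43 ± 0.20 (adjusted p = 0.0623) in dual-targeted and -0.22 ± 0.19 (adjusted p = 0.404) in single-targeted cells in the authors' deposited table, neither of them called. Cdt1, the target of geminin and a loader of the MCM ring, had rebuilt means of 804 in dual-targeted, 574 in single-targeted and 945 in wildtype cells. Its log2 fold changes against wildtype were -0.17 ± 0.20 (adjusted p = 0.529) in dual-targeted and -0.53 ± 0.29 (adjusted p = 0.0853) in single-targeted cells in the authors' deposited table. Cdc6, the ATPase that works with CDT1, was not called in any of the 3 comparisons, with 0.35 ± 0.25 (adjusted p = 0.181) between dual-targeted and single-targeted cells in the authors' deposited table.

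The 6 genes of the replicative helicase ring, Mcm2 to Mcm7, had 2 members called higher in dual-targeted than in single-targeted cells in the authors' deposited table, 33.3% beside 7.06% of all genes. All 6 had a log2 fold change above 0 there, from 0.21 to 0.66 with a median of 0.41, beside 8014 of 16149 genes above 0 in the authors' deposited table. Against wildtype their median was 0.10 in dual-targeted cells with none of the 6 called and 1 at an unadjusted p under 0.05, and -0.33 in single-targeted cells with 1 called lower and 4 at an unadjusted p under 0.05, in the authors' deposited tables. The backgrounds in those comparisons were 20.9% and 2.96% of all genes called, and other tools could not be run on these tables.

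Mcm2 (chromosome 6, 88883474 to 88898780, minus strand) had a rebuilt mean of 2262 in the clones and 2082 in the third line, against 1267 in single-targeted cells, with 1935 in wildtype cells. Dual-targeted and wildtype cells were thus near each other, and single-targeted cells lay below both. The difference of dual-targeted from single-targeted cells was 0.66 ± 0.27 (adjusted p = 0.0270) in the authors' deposited table. Single-targeted against wildtype cells gave -0.45 ± 0.25 (adjusted p = 0.110) for Mcm2 in the authors' deposited table, which missed the threshold.

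Mcm5 (chromosome 8, 75109569 to 75128439, plus strand) was lowest in single-targeted cells too. Its rebuilt mean was 2549 in the clones, 2157 in the third line, 1716 in single-targeted cells and 2795 in wildtype cells. Its fall in single-targeted against wildtype cells was -0.61 ± 0.20 (adjusted p = 0.00867) in the authors' deposited table, the lowest adjusted p of the 54 there. Dual-targeted against wildtype cells gave -0.16 ± 0.17 (adjusted p = 0.489), and dual-targeted against single-targeted cells 0.38 ± 0.22 (adjusted p = 0.122), in the authors' deposited tables. Mcm5 lies on a chromosome whose genes were lower as a whole in the mutants, as described below.

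Mcm7 (chromosome 5, 138164583 to 138172422, minus strand) had a rebuilt mean of 3387 in the clones and 2652 in the third line, against 2048 in single-targeted cells, with 2430 in wildtype cells. The difference of dual-targeted from single-targeted cells was 0.51 ± 0.22 (adjusted p = 0.0435) in the authors' deposited table. With the adjustment redone over every gene with a p, its adjusted p was 0.0524. Mcm7 overlaps 2 genes on the opposite strand, Cops6 over 64 bases and Ap4m1 over 421 bases. In dual-targeted against wildtype cells Cops6 had 0.43 (adjusted p = 0.0427) and Ap4m1 0.36 (adjusted p = 0.191) in the authors' deposited table. Mcm3, Mcm4 and Mcm6 were not called in any comparison. Their differences of dual-targeted from single-targeted cells were 0.43 ± 0.23, 0.27 ± 0.19 and 0.21 ± 0.17 on the log2 scale in the authors' deposited table.

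The upstream sequence of 4 of these helicase genes is shown because E2F factors are known to act at such promoters, and because Mcm2 and Mcm7 were called between dual-targeted and single-targeted cells, Mcm5 was called in single-targeted cells, and Mcm6 was never called. Each is the 170 bases before the RefSeq gene start on build GRCm38.p6, given 5′ to 3′ on the strand of the gene, with capitals marking matches on either strand to the E2F octamers TTTCGCGC, TTTGGCGC, TTTCCCGC and TTTGCCGC. The windows are chr6:88898781-88898950 (minus strand) for Mcm2, chr8:75109339-75109508 (plus strand) for Mcm5, chr1:128359706-128359875 (minus strand) for Mcm6 and chr5:138171884-138172053 (minus strand) for Mcm7. Gene positions given above are from GENCODE, and the Mcm7 window lies inside the gene as placed there.
Mcm2: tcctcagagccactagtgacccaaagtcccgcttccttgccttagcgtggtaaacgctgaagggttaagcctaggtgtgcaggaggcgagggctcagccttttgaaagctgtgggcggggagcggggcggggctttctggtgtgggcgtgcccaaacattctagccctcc
Mcm5: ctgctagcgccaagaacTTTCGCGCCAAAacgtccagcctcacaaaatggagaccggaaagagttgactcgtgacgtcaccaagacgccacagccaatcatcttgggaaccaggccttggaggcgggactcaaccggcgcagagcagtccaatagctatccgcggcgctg
Mcm6: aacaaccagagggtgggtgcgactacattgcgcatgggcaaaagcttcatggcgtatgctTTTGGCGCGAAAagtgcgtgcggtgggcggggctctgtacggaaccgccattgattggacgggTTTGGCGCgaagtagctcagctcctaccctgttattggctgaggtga
Mcm7: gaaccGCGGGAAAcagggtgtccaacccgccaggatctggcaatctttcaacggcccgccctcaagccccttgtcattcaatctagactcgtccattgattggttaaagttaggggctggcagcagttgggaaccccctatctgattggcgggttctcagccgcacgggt

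The Mcm5 window held 2 octamers that overlap each other, starting at bases -153 and -149 from the gene start. The Mcm6 window held 3, an overlapping pair starting at -110 and -106 and a single match at -47. The Mcm7 window held 1 at -165, and a further match at base 16 lay past the part shown. The Mcm2 window held none of the 4 words, which says only that these letters are not in it. Whether matches go with the calls was not tested.

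Promoters of 250 bases before to 50 bases after the start were in the RefSeq table for 46 of the 54 genes. Gins1, Gins2, Gins4, Gmnn, Mcm4, Pole, Prim2 and Rfc2 had no entry. At least 1 of the 4 octamers was in 18 of the 46 (39.1%), beside 4.22% of 10860 genes of the tables with a promoter and 2.32% of all 27025 promoters. TTTCCCGC was in 10 of the 46, TTTGGCGC in 8, TTTCGCGC in 5 and TTTGCCGC in 0, and these counts include overlapping matches. The word CCAAT, bound by the factor NF-Y, was in 27 of the 46 (58.7%), beside 37.9% of all promoters. A match describes the sequence and is not evidence of binding in these cells.

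The remaining MCM genes have other tasks. Mcm8 and Mcm9 form a helicase for recombination repair, and Mcm10 helps to switch on the fork. In the authors' deposited table their differences of dual-targeted from single-targeted cells were -0.16 for Mcm8, -0.10 for Mcm9 and 0.17 for Mcm10, and none was called in any comparison. Mcm9 overlaps Asf1a on the opposite strand over 12469 bases, and Asf1a was called higher in dual-targeted cells.

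None of the 6 genes of helicase activation was called in the 3 comparisons in the authors' deposited tables, with 1 of them at an unadjusted p under 0.05 in single-targeted against wildtype and 1 in dual-targeted against single-targeted cells. Cdc45 and the 4 GINS genes encode the partners that make the MCM ring active, and Cdc7 the kinase that fires origins. The widest gap was that of Gins4, with rebuilt means of 468 in dual-targeted, 296 in single-targeted and 459 in wildtype cells. Its log2 fold changes were 0.50 ± 0.27 (adjusted p = 0.0809) in dual-targeted against single-targeted cells and -0.47 ± 0.25 (adjusted p = 0.0914) in single-targeted against wildtype cells in the authors' deposited tables. Cdc45 had 515 in dual-targeted, 426 in single-targeted and 445 in wildtype cells, differences within the standard errors.

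Of the 11 polymerase and primase genes, 1 was called higher and 1 lower in dual-targeted against wildtype cells in the authors' deposited table, a share of 18.2% near the background of 20.9%, and both encode subunits of the same enzyme. DNA polymerase epsilon copies the leading strand and has 4 subunits, of which Pole is the catalytic one, Pole2 its partner, and Pole3 and Pole4 small histone-fold subunits that also bind histones. In dual-targeted against wildtype cells Pole fell while Pole3 rose, and Pole2 and Pole4 had values on the same sides without passing the test.

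Pole3 (chromosome 4, 62522649 to 62525068, minus strand) had a rebuilt mean of 340 in the clones and 267 in the third line, against 153 in single-targeted cells and 163 in wildtype cells. Both kinds of dual-targeted line lay above both other groups, which were close to each other. Its log2 fold change in dual-targeted against wildtype cells was 0.85 ± 0.24 (adjusted p = 0.00113) in the authors' deposited table, the lowest adjusted p of the 54. Dual-targeted against single-targeted cells gave 0.86 ± 0.35 (adjusted p = 0.0211), and single-targeted against wildtype cells -0.03 ± 0.16 (adjusted p = 0.935), in the authors' deposited tables.

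Pole (chromosome 5, 110286306 to 110337474, plus strand) had a rebuilt mean of 1821 in the clones, 1749 in the third line, 2169 in single-targeted cells and 2560 in wildtype cells. It was thus highest in wildtype and lowest in dual-targeted cells. The fall in dual-targeted against wildtype cells was -0.45 ± 0.16 (adjusted p = 0.0150) in the authors' deposited table. Without the third line its adjusted p was 0.0654 in the authors' deposited table of the clones. Pole2 had -0.35 ± 0.20 (adjusted p = 0.140) and Pole4 0.33 ± 0.21 (adjusted p = 0.183) in the same comparison of the authors' deposited table.

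Of the other 7 polymerase and primase genes none was called in the 3 comparisons. Pola1 and Pola2 encode the catalytic and accessory subunits of polymerase alpha, which with the primase subunits Prim1 and Prim2 starts each new strand, and Pold1 to Pold3 encode polymerase delta. Pola2 came nearest, with a rebuilt mean of 1177 in dual-targeted, 1332 in single-targeted and 1567 in wildtype cells and a log2 fold change of -0.36 ± 0.16 (adjusted p = 0.0622) in dual-targeted against wildtype cells in the authors' deposited table. The polymerase delta genes had -0.30 for Pold1, -0.20 for Pold2 and -0.27 for Pold3 in that comparison of the authors' deposited table, with adjusted p between 0.196 and 0.469. The 11 polymerase and primase genes together had a median of -0.20 in dual-targeted against wildtype cells in the authors' deposited table, with 7 of 11 below 0.

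The clamp loader gene Rfc4 (chromosome 16, 23113943 to 23127737, minus strand), one of 5 RFC subunits that open the PCNA ring, rose in dual-targeted cells. Its rebuilt mean was 314 in the clones, 207 in the third line, 220 in single-targeted cells and 177 in wildtype cells, so the clones stood apart from the other dual-targeted line. The log2 fold change in dual-targeted against wildtype cells was 0.55 ± 0.25 (adjusted p = 0.0369) in the authors' deposited table. Rfc4 shares 194 bases with Eif4a2 on the opposite strand, a gene with a far higher mean count of 16426 in that comparison. Eif4a2 had a log2 fold change of 0.34 (adjusted p = 0.148) there in the authors' deposited table. Whether its reads entered the Rfc4 count was not tested. The other 4 RFC genes lay between -0.04 and 0.01 in the same comparison of the authors' deposited table. Pcna, the sliding clamp itself, had rebuilt means of 1437 in dual-targeted, 1153 in single-targeted and 1286 in wildtype cells, and a log2 fold change of 0.14 ± 0.18 (adjusted p = 0.589) in dual-targeted against wildtype cells in the authors' deposited table. None of the 3 RPA genes, which coat single-stranded DNA, was called in the 3 comparisons, and 0 had an unadjusted p under 0.05.

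The CAF-1 complex places newly made H3-H4 histones behind the fork, and its larger subunits moved in different comparisons. Chaf1b (chromosome 16, 93883901 to 93906115, plus strand) had a rebuilt mean of 558 in the clones, 575 in the third line, 576 in single-targeted cells and 837 in wildtype cells, so the mutant groups lay close to each other and below wildtype. Its log2 fold change was -0.51 ± 0.17 (adjusted p = 0.00941) in dual-targeted against wildtype and -0.40 ± 0.22 (adjusted p = 0.131) in single-targeted against wildtype cells in the authors' deposited tables. Between dual-targeted and single-targeted cells the value for Chaf1b was -0.01 ± 0.15 (adjusted p = 0.971) in the authors' deposited table.

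Chaf1a, the largest subunit (chromosome 17, 56040439 to 56072289, plus strand), had a rebuilt mean of 2486 in the clones and 2164 in the third line, against 1469 in single-targeted cells, with 1902 in wildtype cells. It was higher in dual-targeted than in single-targeted cells by 0.59 ± 0.23 (adjusted p = 0.0230) in the authors' deposited table. Neither dual-targeted nor single-targeted cells had Chaf1a called against wildtype. Chaf1a overlaps Ubxn6 on the opposite strand over 5245 bases, and Ubxn6 had a log2 fold change of -0.07 in dual-targeted against wildtype cells in the authors' deposited table. Fen1 and Lig1, the nuclease and the ligase that finish Okazaki fragments, had a like order of groups without being called. The rebuilt means of Lig1 were 1680 in dual-targeted, 1127 in single-targeted and 1487 in wildtype cells, and its difference of dual-targeted from single-targeted cells was 0.46 ± 0.23 (adjusted p = 0.0712) in the authors' deposited table.

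Rrm1 and Rrm2, the subunits of ribonucleotide reductase, and Tyms, thymidylate synthase, make the DNA building blocks. None of the 3 was called in the 3 comparisons, with 1 at an unadjusted p under 0.05, in dual-targeted against single-targeted cells. Their log2 fold changes in dual-targeted against wildtype cells were 0.06 to 0.18 in the authors' deposited table.

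Among 3 activator E2F genes, 1 was called in dual-targeted against wildtype cells (E2f2, higher) and 1 in single-targeted against wildtype cells (E2f1, lower). Each is 33.3% of the 3, beside 20.9% and 2.96% of all genes called in those comparisons, and each share rests on 1 gene. E2f2 (chromosome 4, 136172394 to 136196057, plus strand) had a rebuilt mean of 624 in the clones, 389 in the third line, 356 in single-targeted cells and 308 in wildtype cells. Its rise in dual-targeted against wildtype cells was 0.73 ± 0.24 (adjusted p = 0.00454) in the authors' deposited table. By rebuilt means the clones lay further above wildtype than the third line. Single-targeted against wildtype cells gave 0.07 ± 0.15 (adjusted p = 0.817) for E2f2 in the authors' deposited table.

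E2f1 (chromosome 2, 154559407 to 154569892, minus strand) was lower in every mutant group, with a rebuilt mean of 475 in the clones, 413 in the third line, 391 in single-targeted cells and 662 in wildtype cells. The fall was called in single-targeted against wildtype cells at -0.61 ± 0.27 (adjusted p = 0.0440) in the authors' deposited table. The authors' deposited tables gave -0.45 ± 0.21 (adjusted p = 0.0539) in dual-targeted against wildtype cells and 0.15 ± 0.18 (adjusted p = 0.524) in dual-targeted against single-targeted cells. E2f3 was not called, with -0.24 ± 0.18 (adjusted p = 0.298) in dual-targeted against wildtype cells in the authors' deposited table.

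**Figure D2:**
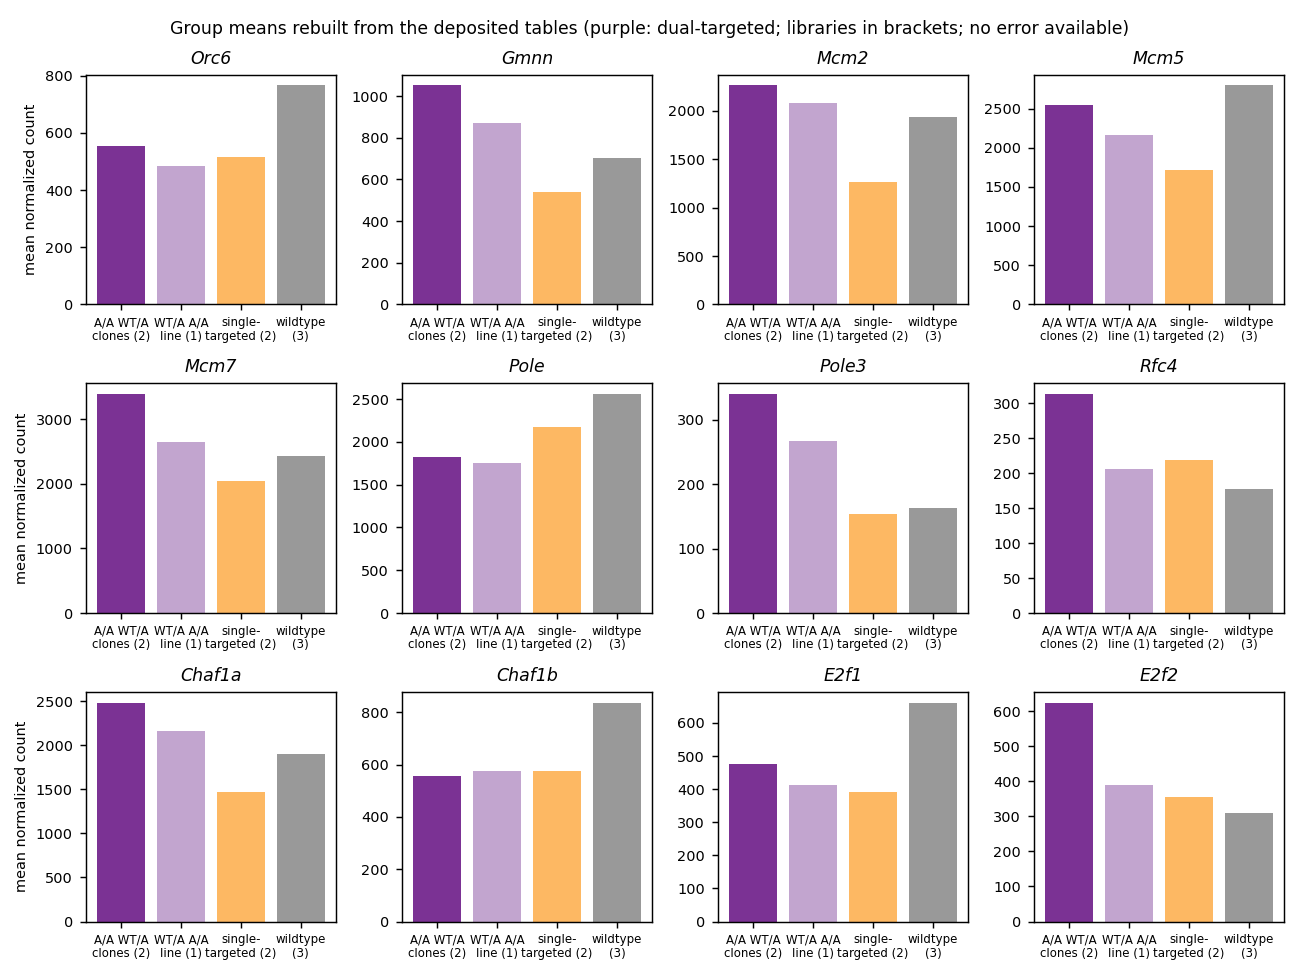
Rebuilt mean of normalized counts (vertical axis, from 0) of the 12 replication genes called in at least 1 table, in the clones, the third line, single-targeted and wildtype cells. Bars are group means with no error available. Gmnn, Mcm2, Mcm5, Mcm7, Chaf1a, Pole3 and E2f1 have their lowest bar in single-targeted cells. Pole3 is high in both kinds of dual-targeted line, and Chaf1b, Orc6, E2f1, Pole and Mcm5 are highest in wildtype cells.

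A further table set the 2 clones against wildtype and left out the third line. Of the 54 genes 4 were called in it, 3 higher and 1 lower, a share of 7.41% against 19.3% of 15640 genes tested (9.05% higher and 10.3% lower). This table shares the clones and the wildtype libraries with the comparison of all dual-targeted cells. Pole3 had 0.95 ± 0.27 (adjusted p = 0.00134), E2f2 0.94 ± 0.24 (adjusted p = 0.000359), Rfc4 0.73 ± 0.26 (adjusted p = 0.0105) and Chaf1b -0.49 ± 0.20 (adjusted p = 0.0311) in the authors' deposited table. Orc6 and Pole were not called without the third line, at -0.37 ± 0.22 (adjusted p = 0.162) and -0.41 ± 0.19 (adjusted p = 0.0654) in the authors' deposited table. By rebuilt means, the clones and the other line lay on the same side of wildtype for 41 of the 54 genes, which is 75.9% against 80.8% of all genes. Rfc4 and E2f2 in the third line were nearer to single-targeted cells than to the clones, and as that line is 1 library the gap could not be tested.

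Position on chromosome 8 went with lower values. Extra copies of chromosome 8 are known to arise in cultured mouse embryonic stem cells, and DNA copy number was not measured here. Over 626 genes of chromosome 8 whose mean count reached 50, the median log2 fold change was -0.32 in dual-targeted against wildtype cells in the authors' deposited table, with 230 called lower and 30 higher. Single-targeted against wildtype cells had a chromosome 8 median of -0.21 over 649 genes, with 83 lower and 3 higher, in the authors' deposited table. By rebuilt means, the median chromosome 8 gene stood at 0.770 of wildtype in the clones, 0.739 in the third line and 0.722 in single-targeted cells.

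Of the 54 genes 6 lie on chromosome 8, namely Cdt1, Gins2, Gins3, Gins4, Mcm5 and Orc6. Their median log2 fold change was -0.16 in dual-targeted against wildtype cells and -0.45 in single-targeted against wildtype cells, where all 6 were below 0 and Mcm5 was called, in the authors' deposited tables. The other 48 genes had medians of 0.05 and -0.06 in those comparisons of the authors' deposited tables. Between dual-targeted and single-targeted cells the 6 had a median of 0.21 and the other 48 a median of 0.13, while all chromosome 8 genes had 0.02, in the authors' deposited table. Mcm5 in single-targeted cells lay 0.39 below the chromosome 8 median on the log2 scale, and Orc6 lay 0.12 below it in dual-targeted cells, in values computed from the authors' deposited tables. Deposited values are read as shrunken, so such gaps depend on the measure. By rebuilt means the log2 ratio of single-targeted to wildtype cells was -0.70 for Mcm5. The median ratio was -0.60 for the 6 genes and -0.47 for all chromosome 8 genes. What share of the calls of Mcm5 and Orc6 goes with the chromosome was not tested. No replication gene lies on chromosome 14, whose genes were lower in the clones.

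**Figure D3:**
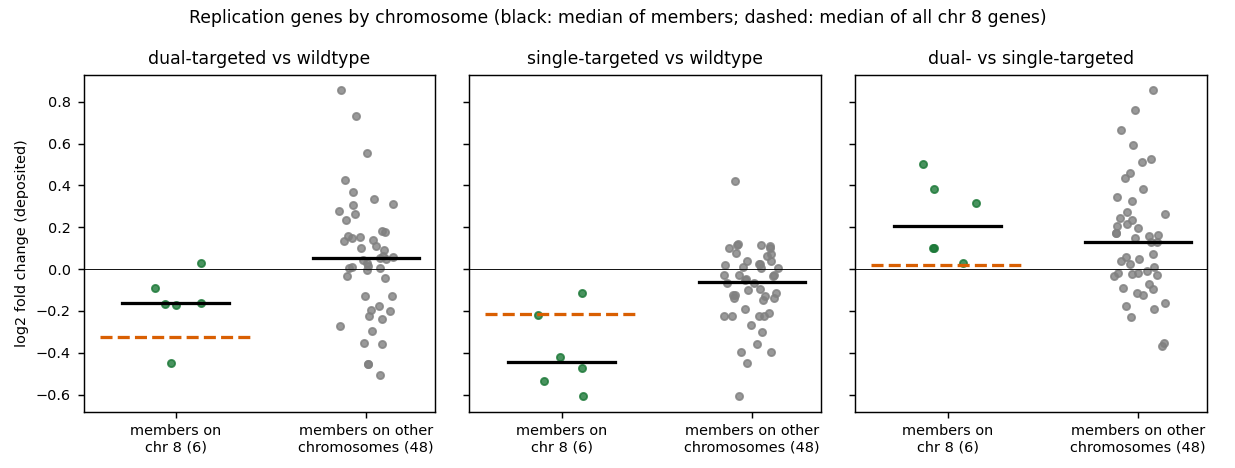
Log2 fold change as deposited (vertical axis) of the 6 replication genes on chromosome 8 and the 48 on other chromosomes, in the 3 comparisons, with 1 point for each gene. Black bars are medians of these genes and the dashed line is the median of all chromosome 8 genes. In single-targeted against wildtype cells the 6 lie at or below 0 with a median of -0.45, below the chromosome's own -0.21. By rebuilt means these medians are -0.60 and -0.47.

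Gene length also went with the fold change. Long genes were lower in dual-targeted cells over the whole set. Spearman's rho across 10039 protein-coding genes (10036 in single-targeted against wildtype cells) between gene length and log2 fold change was -0.29 in dual-targeted against wildtype, 0.16 in single-targeted against wildtype and -0.44 in dual-targeted against single-targeted cells, in values computed from the authors' deposited tables. Genes are not independent replicates, so these are descriptions. Over the 54 genes rho was -0.13, 0.44 and -0.53 in the same order of comparisons. The median length of the 54 was 20275.5 bases, against 26199 bases for protein-coding genes.

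The 5 genes called between dual-targeted and single-targeted cells were set beside the median of genes of their own length. Pole3, 2420 bases long, had 0.86 against 0.03 for genes of that length, and Gmnn, at 10079 bases, had 0.76 against 0.11, in values from the authors' deposited table. Mcm2 had 0.66 against 0.06, Mcm7 0.51 against 0.12 and Chaf1a 0.59 against -0.01, again from the authors' deposited table. All 5 lay above the genes of their length. They were picked because they were called higher in this same comparison, so this is not a test. Pole, the longest of the 6 called in dual-targeted against wildtype cells at 51169 bases, had -0.45 against -0.05 for its length in the authors' deposited table.

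**Figure D4:**
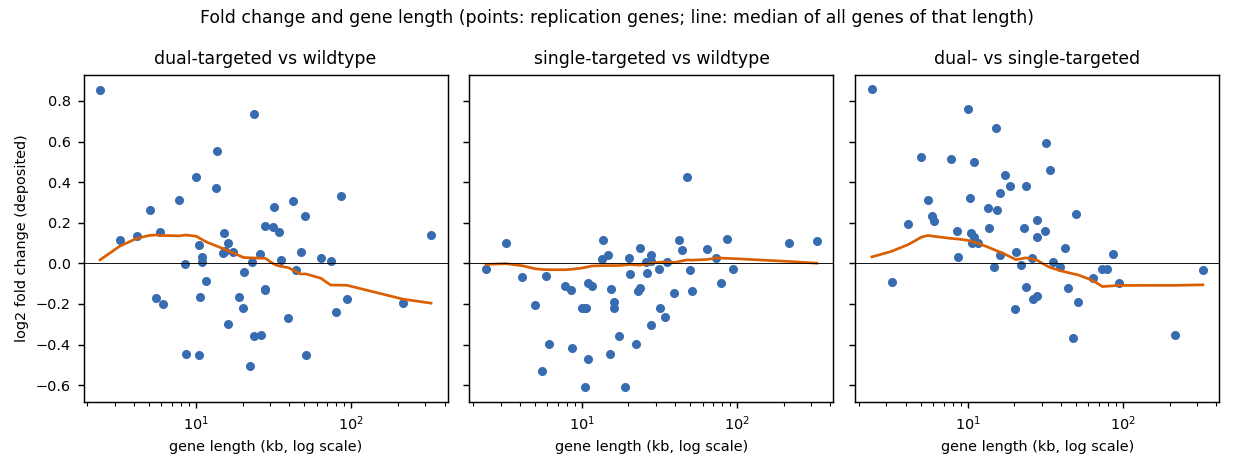
Log2 fold change as deposited (vertical axis) against gene length in kilobases (horizontal axis, log scale) for the 54 replication genes in the 3 comparisons. Points are genes and the line is the median of all genes of the same length, and in the right panel, dual-targeted against single-targeted cells, shorter replication genes lie higher (rho -0.53).

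Genes that work beside the replication machinery were listed in 6 groups, of which 114 were tested in dual-targeted against wildtype cells. Of these 14 were higher and 8 lower in the authors' deposited table, 19.3% beside the background of 20.9%. Single-targeted against wildtype cells had 2 higher and 3 lower of the 114 in the authors' deposited table, 4.39% beside 2.96% of all genes. With chromosomes 8, 14 and Y left out and the adjustment redone, 2 higher and 0 lower remained in that comparison. Dual-targeted against single-targeted cells had 4 higher and 1 lower of 113, 4.42% beside 7.06% of all genes, in the authors' deposited table. The counts of each group are given next, and no test compares the groups.

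Enzymes of nucleotide supply had 5 of 17 higher and 1 lower in dual-targeted against wildtype cells in the authors' deposited table, 35.3% beside 20.9% of all genes. Tk1, thymidine kinase, rose by 0.92 ± 0.22 (adjusted p = 0.000124) and Nme1, a nucleoside diphosphate kinase, by 0.81 ± 0.23 (adjusted p = 0.00140) in the authors' deposited table. Dut, which removes dUTP so that uracil stays out of DNA, rose by 0.72 ± 0.22 (adjusted p = 0.00248), and its difference of dual-targeted from single-targeted cells was 1.11 ± 0.27 (adjusted p = 0.000502), in the authors' deposited tables. Dctd, a deaminase on chromosome 8, fell by 0.73 in dual-targeted and by 0.72 in single-targeted cells, both against wildtype, in the authors' deposited tables.

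Cyclins, CDKs, their inhibitors, RB proteins and other E2F proteins of the G1/S switch had 4 of 26 higher and 3 lower in dual-targeted against wildtype cells in the authors' deposited table, 26.9% beside 20.9% of all genes. In single-targeted against wildtype cells 0 of 26 were called, beside 2.96% of all genes, with 6 at an unadjusted p under 0.05, in the authors' deposited table. Ccne1 and Ccne2, the E cyclins that drive entry into S phase, rose by 0.94 ± 0.20 (adjusted p = 1.08e-05) and 0.58 ± 0.22 (adjusted p = 0.0170) in the authors' deposited table. Ccnd2, a D cyclin, rose by 1.43 ± 0.37 (adjusted p = 0.000187) in the same deposited table of the authors. Rbl1, which encodes the pocket protein p107, and Cdkn1b, which encodes the CDK inhibitor p27, fell by 0.88 and 0.47 in dual-targeted cells in the authors' deposited table. Cdkn1a, the p53 target that encodes p21, was not called, at 0.36 ± 0.21 (adjusted p = 0.141) in the authors' deposited table.

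Initiation and fork accessory genes had 2 of 31 higher and 3 lower in dual-targeted against wildtype cells in the authors' deposited table, 16.1% beside 20.9%. Primpol, a primase that restarts stalled forks, fell by 2.06 ± 0.24 (adjusted p = 2e-16) in dual-targeted and by 0.74 ± 0.24 (adjusted p = 0.00693) in single-targeted cells, both against wildtype, and by 1.12 ± 0.31 (adjusted p = 0.00231) in dual-targeted against single-targeted cells, in the authors' deposited tables. It lies on chromosome 8. Top1, a topoisomerase, rose by 0.58 ± 0.17 (adjusted p = 0.00220) in dual-targeted cells, and Dbf4, the activator of CDC7, was not called at 0.24 ± 0.16 (adjusted p = 0.255), in the authors' deposited table.

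None of the 10 replication checkpoint genes was called in the 3 comparisons of the authors' deposited tables, with 1, 0 and 2 of them at an unadjusted p under 0.05 in the order of the comparisons above. Of all genes 20.9%, 2.96% and 7.06% were called in those comparisons. Of 11 genes of replication-coupled chromatin 2 were higher and 0 lower in dual-targeted against wildtype cells in the authors' deposited table, 18.2% beside 20.9% of all genes. Asf1a, which hands histones to CAF-1, rose by 0.73 ± 0.20 (adjusted p = 0.00106), and Rbbp7, a histone-binding protein, by 0.60 ± 0.16 (adjusted p = 0.000957), in the authors' deposited table. Mitosis genes had 1 of 20 higher and 1 lower in that comparison of the authors' deposited table, 10% beside 20.9% of all genes. These were Birc5, which encodes survivin, at 1.03 ± 0.18 (adjusted p = 1.05e-07) and Aurkb, a kinase of the same complex, at -0.42 ± 0.18 (adjusted p = 0.0482), in the authors' deposited table. The proliferation marker Mki67 had -0.01 ± 0.17 (adjusted p = 0.982) in dual-targeted and -0.11 ± 0.16 (adjusted p = 0.719) in single-targeted cells against wildtype in the authors' deposited tables.

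**Figure D5:**
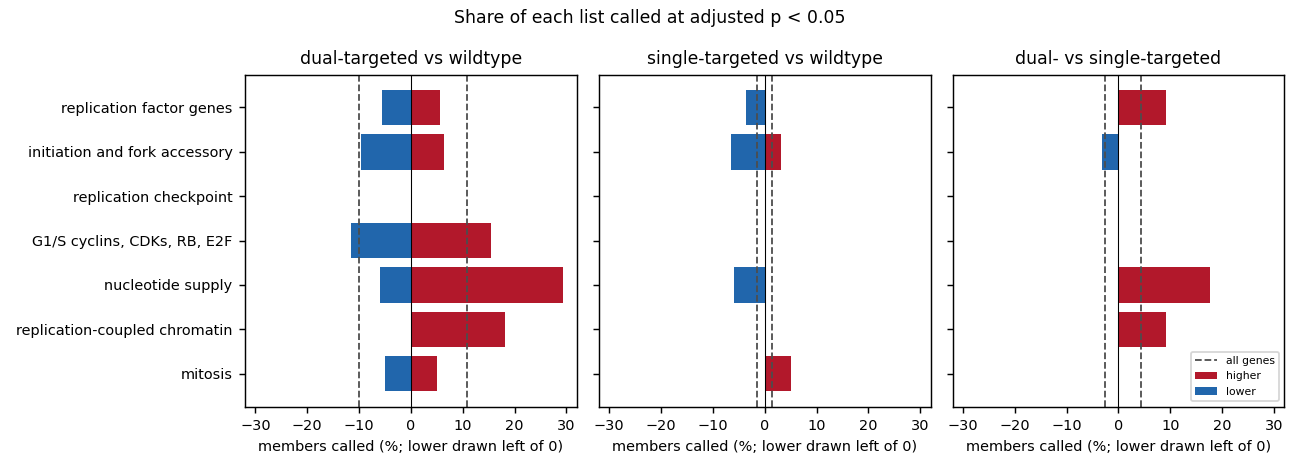
Share of genes called higher (red, right of 0) and lower (blue, left of 0) at an adjusted p under 0.05 (horizontal axis, percent) among the replication factor genes and the 6 other groups (vertical axis), in the 3 comparisons. Dashed lines mark the shares of all genes, 10.8% higher and 10.1% lower in dual-targeted against wildtype cells, where the replication factor genes fall short of both.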

How the data were processed

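TT-seq libraries of E14 cells were compared by the authors in 4 tables, and each table has its own normalization and fit. The submitters' processing notes name DESeq2, featureCounts, STAR, deepTools and SAMtools without versions, and GRCm38.p6 and mm10 as builds. No source used here says whether counting used strand. Per the file headers, the authors deposited a mean of normalized counts (a signal over the libraries compared), a log2 fold change with its standard error, a p-value and an adjusted p-value for each gene. The deposited log2 fold changes are read as shrunken, since they are smaller in size than the log2 ratio of the rebuilt group means (below) for 100% of the called genes checked, those in all 4 tables with a mean count of at least 50, and no source used here names the estimator.

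No model was fitted again, since the tables hold no column per library. A gene was called at a deposited adjusted p under 0.05. Rebuilt group means followed by subtraction from the 4 deposited means, with scales of 0.983, 1.06 and 0.957 chosen after the data were seen, which set the median ratio of each group to wildtype at 1. Without them the median log2 ratio of all genes was -0.17 for dual-targeted and -0.16 for single-targeted against wildtype. They gave the direction of the fold changes: for 100% of the same genes (2726, 387, 885 and 2504), positive is higher in the mutants, or in dual-targeted against single-targeted cells. The subtraction and the adjustment were tested on simulated data. P-values set the difference between groups against the spread within them, which is between replicates in wildtype cells and between lines in the mutant groups. Lines of different genotype are pooled in the single-targeted and dual-targeted groups.

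The genes and lists were chosen with earlier results of these data known. Named genes were every called member, members needed to describe a role, up to 4 genes of each other list by adjusted p, and Cdkn1a, Ccne1, Ccne2, Dbf4, Mki67, H3f3a and H3f3b. Positions and lengths came from GENCODE mouse release 21, which held 54 of the 54 symbols, and promoters from RefSeq. Scripts ran in Python 3.11.15 with scipy 1.17.1, pandas 2.3.3, numpy 2.4.6 and, for figures, matplotlib 3.10.9. Other thresholds, adjustments, chromosomes and the clones table were tried as alternatives.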

Additional observations from a re-analysis of the deposited data

Results flagged for a closer look

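In 5 of 54 replication genes the dual-targeted and single-targeted groups differed by the authors' test of the difference itself, in the authors' deposited table. That is 9.26%, near the 7.06% of all genes. At an adjusted p under 0.01 the count was 0. With the adjustment redone over every gene with a p, Mcm7 was at 0.0524. The log2 differences of dual-targeted from single-targeted cells were 0.86 for Pole3, 0.76 for Gmnn, 0.66 for Mcm2, 0.59 for Chaf1a and 0.51 for Mcm7. No search for outlying libraries within a group was run, since each group holds 3 or fewer.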

How the results depend on the processing

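At an adjusted p under 0.01 and under 0.1, the count of replication genes called in the authors' deposited tables was 3 and 10 in dual-targeted against wildtype cells (6 at 0.05), 1 and 4 in single-targeted against wildtype cells (2 at 0.05), 0 and 8 in dual-targeted against single-targeted cells (5 at 0.05), and 2 and 7 in the clones against wildtype (4 at 0.05). Without chromosomes 8, 14 and Y, single-targeted against wildtype cells had 0 called, since Mcm5 was left out by construction and E2f1 had an adjusted p of 0.0561, and Mcm7 between dual-targeted and single-targeted cells had 0.0520. With a mean count of 50 or more, dual-targeted against wildtype cells had 7 called, E2f1 being added at 0.0471. The shares of all genes called at these other settings were not counted, so these counts have no background beside them. Without the third line the count was 4 and the median log2 fold change 0.07. The median of dual-targeted against wildtype cells was -0.00 with the length trend removed, and those of the other comparisons kept their sign. From rebuilt means the median was -0.21 in single-targeted against wildtype cells (-0.10 as deposited) and 0.21 in dual-targeted against single-targeted cells (0.13 as deposited). Leaving out other libraries was not run, and the unknown depth of each library limits what can be said of single lines. No paired analysis was possible because the tables hold no values per library.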
